A study of Mus musculus with 16 samples.

Results

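The genes that mark haematopoietic stem cells (HSCs) at the cell surface or in reporter mice were examined for open chromatin in ATAC-seq peak lists, which record where transposase reached the DNA. The set comprised 9 genes (Procr, Slamf1, Kit, Cd34, Ly6a, Cd48, Tek, Fgd5 and Ctnnal1). Their regions were the merged peaks called in at least 2 of 16 libraries whose nearest protein-coding gene, within 100 kb of the median summit, was one of these genes. This gave 24 regions of 33773 in all, at 7 of the 9 genes. Kit had 6 regions, Fgd5 had 5, Procr and Slamf1 had 4 each, Cd34 had 3, and Cd48 and Ctnnal1 had 1 each. No region in at least 2 libraries was assigned to Ly6a or Tek.

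The 16 libraries fall into 4 groups of 4, all from sorted HSCs of male B6 mice. Old post and young post libraries came from HSCs recovered 3 months after transplantation, old pre and young pre libraries from freshly isolated HSCs. Old donors were 24 months old, 1 mouse per replicate, and young donors were 8 to 12 weeks old, 3 to 4 mice pooled per replicate. For transplantation, 1000 HSCs were given to 5 lethally irradiated young BJ mice with 300000 helper marrow cells that had been depleted of Sca-1 positive cells, and the marrow of the 5 recipients was pooled. Sca-1 is the product of Ly6a. The labels name neither the surface markers used to sort HSCs nor a sort on donor origin after transplantation, so HSCs of recipient or helper origin cannot be told apart from donor HSCs in the post libraries. The lists held 5711 to 32557 peaks, and old pre 4, old post 4 and young pre 4 gave the shortest. Read depth is unknown, so no counting interval is given. A region with no peak was read as not called, and fewer cells with an open region cannot be told apart from a less open region in every cell.

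Kit encodes the receptor for stem cell factor, and Tek encodes Tie2, a receptor for angiopoietins. Slamf1 (CD150) and Cd48 belong to the SLAM family of receptors. Mouse HSCs are usually sorted as positive for CD150 and negative for CD48, which marks more committed progenitors. Procr encodes the endothelial protein C receptor (EPCR), and Cd34 a sialomucin that is low or absent on adult mouse long-term HSCs and present on progenitors. Fgd5, a guanine nucleotide exchange factor for Cdc42, and Ctnnal1, which encodes alpha-catulin, are used as reporter genes of mouse HSCs. Surface level and open chromatin are separate measurements, and only the second was made here.

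Promoter sequence is shown to set the composition of the gene starts that were called beside that of the starts that were not. RefSeq promoter windows on build GRCm38.p6, from 250 bases before to 50 bases after the gene start, were matched for 8 of the 9 genes. The gene start is that of the window, which can differ from the end of the gene record. For Cd48 the record begins at 171681245, and the window (171681742 to 171682041) lies inside it. The windows below are written 5′ to 3′ on the gene's strand. Kit, Ctnnal1, Fgd5, Procr and Cd34 had a called region overlapping the window, though at Fgd5 and Cd34 the region's median summit lay past the window's end. Slamf1 and Tek are shown as windows with none. Capitals mark matches on either strand to 5 words. They were AGATAA, as bound by GATA factors, then GGAAGT for ETS factors, TGTGGT for RUNX factors, CAGCTG as an E-box and GGGCGG as a GC box.
Kit promoter, chr5:75574737-75575036, plus strand: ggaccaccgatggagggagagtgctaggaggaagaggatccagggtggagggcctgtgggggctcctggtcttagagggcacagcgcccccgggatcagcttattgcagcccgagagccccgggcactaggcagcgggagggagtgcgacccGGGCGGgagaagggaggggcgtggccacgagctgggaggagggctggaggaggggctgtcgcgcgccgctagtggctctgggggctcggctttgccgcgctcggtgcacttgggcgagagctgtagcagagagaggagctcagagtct
Ctnnal1 promoter, chr4:56865162-56865461, minus strand: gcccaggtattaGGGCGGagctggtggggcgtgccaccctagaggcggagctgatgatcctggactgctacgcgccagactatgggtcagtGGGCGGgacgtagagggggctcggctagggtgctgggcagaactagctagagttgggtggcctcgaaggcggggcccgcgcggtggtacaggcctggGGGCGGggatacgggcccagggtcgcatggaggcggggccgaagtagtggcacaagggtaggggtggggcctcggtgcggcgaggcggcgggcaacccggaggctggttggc
Fgd5 promoter, chr6:91978715-91979014, plus strand: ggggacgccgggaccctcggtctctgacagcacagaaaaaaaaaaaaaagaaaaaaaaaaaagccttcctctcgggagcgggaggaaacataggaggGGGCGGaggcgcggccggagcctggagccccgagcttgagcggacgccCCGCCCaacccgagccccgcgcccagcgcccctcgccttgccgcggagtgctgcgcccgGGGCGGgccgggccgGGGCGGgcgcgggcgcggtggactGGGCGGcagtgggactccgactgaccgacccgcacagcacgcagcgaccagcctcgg
Procr promoter, chr2:155750967-155751266, plus strand: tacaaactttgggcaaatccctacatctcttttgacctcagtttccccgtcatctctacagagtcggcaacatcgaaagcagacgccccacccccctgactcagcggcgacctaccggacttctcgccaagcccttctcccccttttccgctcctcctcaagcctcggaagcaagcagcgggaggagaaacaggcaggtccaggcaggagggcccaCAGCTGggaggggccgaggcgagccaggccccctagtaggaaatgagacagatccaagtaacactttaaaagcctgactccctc
Cd34 promoter, chr1:194938571-194938870, plus strand: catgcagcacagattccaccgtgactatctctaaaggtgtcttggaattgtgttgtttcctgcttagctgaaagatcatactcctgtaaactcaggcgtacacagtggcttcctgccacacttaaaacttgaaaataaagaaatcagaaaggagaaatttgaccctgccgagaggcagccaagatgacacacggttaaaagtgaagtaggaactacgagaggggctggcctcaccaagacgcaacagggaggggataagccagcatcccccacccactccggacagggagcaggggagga
Slamf1 promoter, chr1:171766882-171767181, plus strand: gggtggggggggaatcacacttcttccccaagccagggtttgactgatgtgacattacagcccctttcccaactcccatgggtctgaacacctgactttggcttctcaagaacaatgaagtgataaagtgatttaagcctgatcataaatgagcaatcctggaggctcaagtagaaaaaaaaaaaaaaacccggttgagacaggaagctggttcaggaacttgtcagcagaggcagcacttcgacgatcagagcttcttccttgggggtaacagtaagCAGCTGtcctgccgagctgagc
Tek promoter, chr4:94739039-94739338, plus strand: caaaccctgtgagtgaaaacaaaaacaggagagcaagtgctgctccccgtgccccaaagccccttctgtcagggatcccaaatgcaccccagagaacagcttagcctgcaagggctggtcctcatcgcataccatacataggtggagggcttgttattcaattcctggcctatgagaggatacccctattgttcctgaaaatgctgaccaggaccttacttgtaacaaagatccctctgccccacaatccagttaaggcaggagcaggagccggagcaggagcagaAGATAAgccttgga

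The windows of Kit, Ctnnal1 and Fgd5 were rich in CpG. They held 20, 24 and 37 CpG dinucleotides at a GC content of 69.0%, 70.3% and 71.3%. The Procr window held 13 CpG at 58.3% GC, and the Cd34 window 7 CpG at 50% GC, a GC content below that of the Tek window, which was not called. Among the windows with no called region, Slamf1 held 4 CpG at 49.0% GC, Cd48 held 7 at 47.3% and Tek held 3 at 52.0%. Cd34 and Cd48 had the same number of CpG, and only the Cd34 window was called. Over 32619 windows in the table, the median was 22 CpG where a region was called in all 16 libraries and 3 CpG where none was called in at least 2.

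The GC box was found 5 times in the Fgd5 window, 3 times in Ctnnal1 and 1 time in Kit. It occurs in 35.9% of all windows. An E-box lay 34 bases before the gene start of Procr and 28 bases after that of Slamf1, and 16.4% of all windows hold one. The Tek window held a GATA-type match at 36 bases (11.2% of windows), and the Cd48 window an ETS-type match (23.9%) and a RUNX-type match (16.6%). The Cd34 window held none of the 5 words. No 2 matches overlapped. A match is a string of letters, and occupancy by any factor was not measured.

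**Figure D1:**
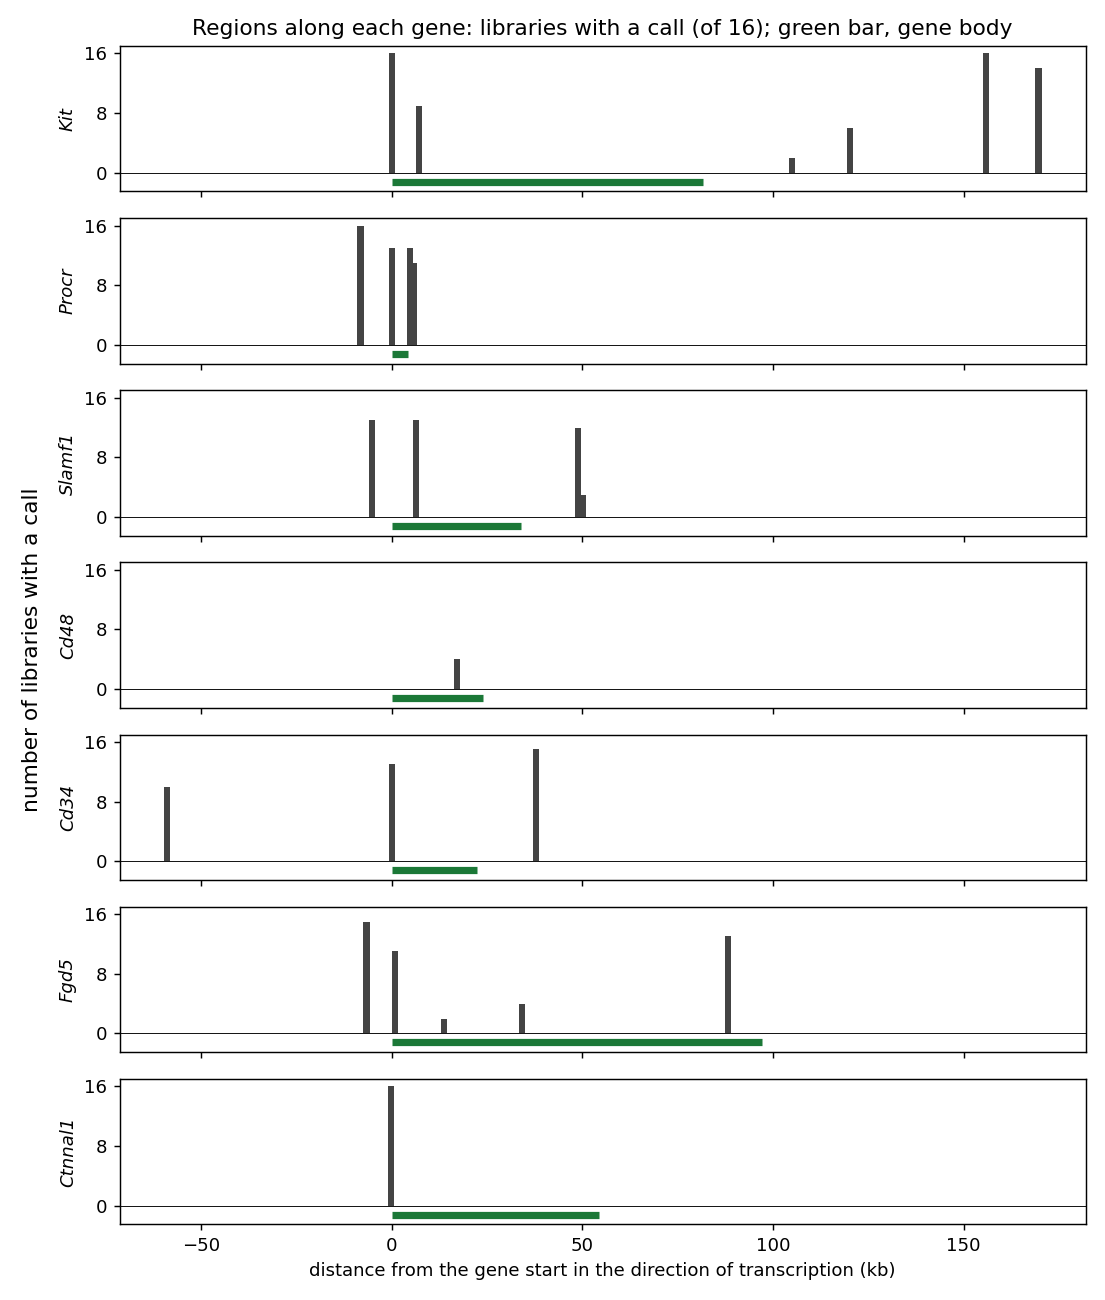
Number of libraries, of 16, in which each region was called (bars, vertical axis), by the distance of its median summit from the gene start in kb along the direction of transcription, for the 7 genes with a region. Green bars are gene bodies. Kit, Ctnnal1 and Procr are the genes with a region at 16, and Slamf1 and Cd48 have no bar at their start.

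Kit was open at its start in every library. The region (chromosome 5, 75574244 to 75576580, build mm10) was 2337 bp wide, and its median summit lay 0.003 kb from the gene start. The area of a peak, the authors' score that sums significance over its bases, was ranked within each library's own list. The Kit start peak ranked at the 95.4th, 97.4th, 97.7th and 94.2nd percentile in old post 1 to 4, between the 97.0th and 97.8th in young post, at 97.3, 97.4, 94.6 and 53.0 in old pre 1 to 4, and at 97.0, 93.8, 95.7 and 87.8 in young pre 1 to 4. It thus stood among the largest peaks of its list except in old pre 4, the shortest list, where the peak was 447 bp wide. Across libraries the strongest position moved by at most 44 bp.

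Downstream of Kit lay a second region that was called in all 16 libraries, 155.9 kb from the gene start and 74.2 kb past the gene end (75729942 to 75731942). Its peak ranked at a median percentile of 91.2, with a range of 54.1 to 95.2, and its summits spanned 13 bp. A neighbour 87.9 kb past the gene end (75744361 to 75745361) was called in 4 of 4 old post, 4 of 4 young post, 3 of 4 old pre and 3 of 4 young pre libraries. That region is the member closest to the 100 kb limit. Beyond the limit, a region 105.5 kb past the gene end was called in 13 libraries and a region 109.1 kb before the gene in 3. No other protein-coding gene lies within 100 kb of Kit, and nearness is the only basis on which these regions carry its name.

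The remaining Kit regions differed in which libraries called them. A region within the gene, 7.2 kb from its start (75581873 to 75582673), was called in 1 of 4 old post (replicate 3), 4 of 4 young post, 3 of 4 old pre (replicates 1 to 3) and 1 of 4 young pre libraries (replicate 1). Its summits spanned 423 bp, and 5 of 9 lay within 100 bp of the median. The peaks ranked low, at a median percentile of 26.0 with a range of 4.81 to 50.6. Among old donors, the number of calls expected in old post from the odds of each library was 2.18, and the 1 call lay -1.18 from it (exact conditional test, unadjusted p = 0.0061, adjusted p = 0.501, with adjusted values of 0.299 to 1 over the alternatives). With pre and post libraries of the same donor number compared as pairs, the difference was -0.542 calls (exact p = 1). Before transplantation it was called in 3 old and 1 young libraries, 1.00 above expectation (exact p = 0.135, adjusted p = 1). Over both ages, post against pre gave exact p = 0.165 (adjusted p = 1). The test of whether the difference between stages differed by age, with donors permuted 4 against 4, gave exact p = 0.0571 (adjusted p = 0.637), where 0.0286 is the smallest p it allows. By that test 0 of 8 members had an unadjusted p under 0.05, where 2.23% of all regions did, and 0 regions of any kind passed after adjustment. Of 1731 other regions with 9 calls, 3 had the same 16 calls, near Smim1, Atg7 and Myrip. These genes were looked up after the values were seen.

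A region 120.3 kb from the Kit start (75695079 to 75695843) was called in 1 of 4 old post, 4 of 4 young post, 0 of 4 old pre and 1 of 4 young pre libraries. Its summits spanned 5 bp over 6 calls. Over both stages there was 1 call in the 8 old libraries and 5 in the 8 young, against 2.29 expected in old (exact p = 0.171, adjusted p = 1). The 2 calls at 105.1 kb were in old post 3 and old pre 1, and both ranked low, at percentiles 3.14 and 13.0.

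Procr was bracketed by open regions. The largest lay 8.2 kb before the gene start (chromosome 2, 155742071 to 155743781) and was called in 16 of 16 libraries. Its peak ranked at 91.3, 94.6, 96.8 and 90.5 in old post 1 to 4, between 94.4 and 95.4 in young post, at 97.2, 97.0, 93.4 and 9.79 in old pre 1 to 4, and at 94.2, 95.5, 93.9 and 57.6 in young pre 1 to 4. The low values fall in the 2 shortest lists, where the peak was 546 and 803 bp wide, against a median width of 1668 bp over all libraries. Unlike the distal Kit region, its strongest position was spread over 613 bp, and 11 of 16 summits lay within 100 bp of the median.

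At the Procr start (155751025 to 155751711) and 4.7 kb past it (155755538 to 155756100), the calls were the same. Both were called in 3 of 4 old post, 4 of 4 young post, 3 of 4 old pre and 3 of 4 young pre libraries, and the libraries lacking them were old pre 4, old post 4 and young pre 4, whose lists are the shortest. Their ranks were moderate, with median percentiles of 43.9 and 30.7. The downstream region had the most constant summit of all members with 13 calls, within 3 bp. It shares this pattern of calls with 2222 others of the 2816 other regions that had 13 calls.

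The region 5.8 kb from the Procr start (155756909 to 155757484) departed from that pattern. It was called in 3 of 4 old post, 4 of 4 young post, 3 of 4 old pre and 1 of 4 young pre libraries. Young pre 2 and 3, which lacked it, have lists of 23044 and 21346 peaks, and old pre 3, which had it, has 17299. In old pre 3 the peak had an area of 207, near the smallest area of 200, and ranked at percentile 1.73. The part of list length in these calls was not tested. Pooled over stages, 6 of 8 old and 5 of 8 young libraries held it, against 4.84 expected in old (exact p = 0.0623, adjusted p = 0.813). Among the members whose p was adjusted, this was the smallest p for old against young over both stages. Before transplantation alone the test gave exact p = 0.135 (adjusted p = 1). Within the transposition days that held both ages, the difference was 0.918 calls over both stages (exact p = 0.103, adjusted p = 1) and 0.927 calls before transplantation (exact p = 0.0731, adjusted p = 1). Its peaks were among the smallest, at percentiles of 0.887 to 39.9.

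**Figure D2:**
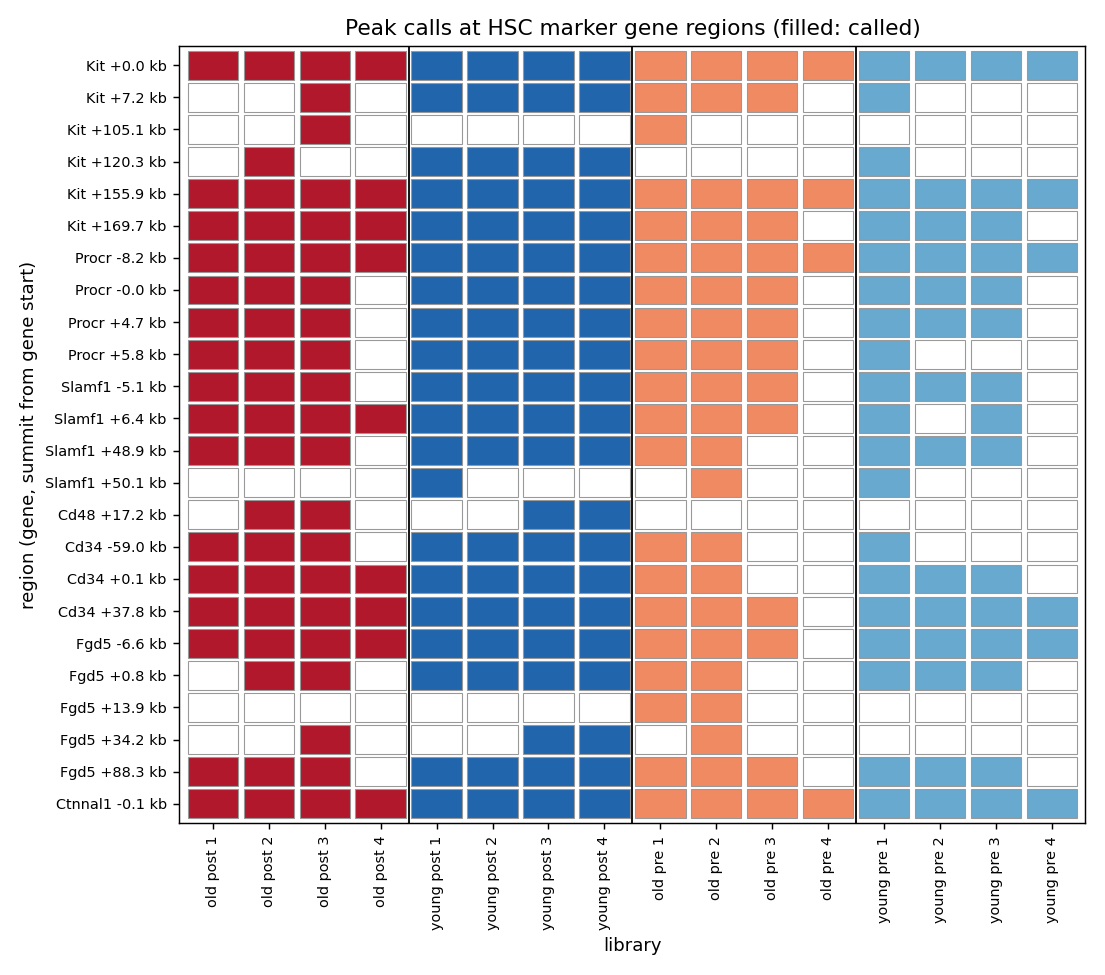
Calls of the 24 regions (rows, named by gene and the distance of the summit from the gene start in kb) in 16 libraries (columns, old post, young post, old pre, young pre). Filled squares are called regions. The columns of old post 4, old pre 4 and young pre 4 hold 9, 4 and 6 filled squares, fewer than any other column.

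The SLAM genes Slamf1 and Cd48 lie next to each other on chromosome 1 and had 4 regions and 1 region. Neither had a region over its start in at least 2 libraries. The Slamf1 regions lay 5.1 kb before the start (171761779 to 171762836), 6.4 kb inside the gene (171772770 to 171774190), and 48.9 and 50.1 kb from the start, past the gene end. The upstream region had the same calls as the Procr start. The region inside the gene was called in 4 of 4 old post, 4 of 4 young post, 3 of 4 old pre and 2 of 4 young pre libraries. Its peak ranked at 36.9, 55.3, 64.8 and 14.3 in old post 1 to 4, between 55.9 and 61.8 in young post, at 65.7, 75.3 and 52.2 in old pre 1 to 3, and at 37.1 and 9.57 in young pre 1 and 3. Before transplantation old libraries held 0.770 calls more than expected (exact p = 0.230, adjusted p = 1). Over both stages 7 of 8 old and 6 of 8 young libraries called it, 0.967 above expectation in old (exact p = 0.0467). With 13 calls it lay outside the range of 4 to 12 calls for which p was adjusted. The region at 48.9 kb was called in 12 libraries and the one at 50.1 kb in 3.

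Cd48 had the sparsest evidence of the 7 genes. Its single region, within the gene (171699084 to 171699326), was called in old post 2 and 3, young post 3 and 4, and in 0 of 4 old pre and 0 of 4 young pre libraries. All 4 peaks were narrow, 235 to 243 bp, and ranked between percentiles 2.12 and 16.6. In post libraries, 2 calls in old and 2 in young compared with 0.981 expected in old (exact p = 0.163, adjusted p = 1). Over both ages, 4 of 8 post and 0 of 8 pre libraries called it, against 3.14 expected in post, where the lists were longer (exact p = 0.474, adjusted p = 1).

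Cd34 was open at 3 places. The region 37.8 kb from the start, 15.3 kb past the gene end (chromosome 1, 194976025 to 194977580), was the largest and was called in 15 libraries, all but old pre 4. Its peak had a median percentile of 81.6, with a range of 26.8 to 85.2. The gene start (194938624 to 194939344) was called in 4 of 4 old post, 4 of 4 young post, 2 of 4 old pre and 3 of 4 young pre libraries. Its peak ranked at 37.9, 46.3, 47.4 and 5.92 in old post 1 to 4, between 50.8 and 55.7 in young post, at 22.3 and 38.1 in old pre 1 and 2, and at 41.5, 21.5 and 19.2 in young pre 1 to 3. Since lists differ in length, no change is read from these ranks. A region 59.0 kb before the start (194879464 to 194880257) was called in 3 of 4 old post, 4 of 4 young post, 2 of 4 old pre and 1 of 4 young pre libraries. Between young post and young pre the number of calls in young post was 0.109 above expectation (exact p = 1, adjusted p = 1).

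Fgd5 and Ctnnal1, the reporter genes, differed at their starts. The Ctnnal1 start (chromosome 4, 56864393 to 56866263) was the gene's only region and was called in 16 of 16 libraries. Its peak ranked between percentiles 79.3 and 89.0 in old post, 88.9 and 90.8 in young post, 77.3 and 91.1 in old pre, and 84.0 and 90.2 in young pre, the narrowest range of the 4 regions called in every library. The Fgd5 start region (chromosome 6, 91978400 to 91980265) overlapped the most CpG-rich window of the set. It was called in 2 of 4 old post, 4 of 4 young post, 2 of 4 old pre and 3 of 4 young pre libraries. Its median summit lay 0.816 kb inside the gene, at 91979781, past the window's end at 91979014. The summits spanned 396 bp, so no summit lay in the window. These are calls of the merged region, and the old pre 1 peak was only 333 bp wide, at percentile 0.044. Of 8 old libraries 4 held it and of 8 young libraries 7, against 4.84 expected in old (exact p = 0.285, adjusted p = 1).

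The strongest Fgd5 region was instead 6.6 kb before the gene start (91971773 to 91973277). It was called in 15 libraries, all but old pre 4, and its peak had a median percentile of 83.2 with summits within 31 bp. The region 88.3 kb into the gene had the same calls as the Procr start. A region 13.9 kb into the gene (91992366 to 91992910) was called in old pre 1 and 2 alone (post against pre, exact p = 0.0198, outside the range for which p was adjusted), a pattern it shares with 465 of the 1966 other regions with 2 calls. These 2 libraries alone shared the first transposition day, whose part in the calls was not tested. The region at 34.2 kb was called in 4 libraries, old post 3, young post 3 and 4, and old pre 2.

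Ly6a, which encodes Sca-1, had no region of its own. The nearest region lay 6.09 kb from Ly6a and 5.35 kb from Ly6i, to which it was assigned (chromosome 15, 74988272 to 74989798). It was called in 4 of 4 old post, 4 of 4 young post, 3 of 4 old pre and 4 of 4 young pre libraries. Ly6a and its neighbours are close relatives in sequence, and how reads mapping to several places were handled is not given in the sources used here. Tek had a peak in 1 library, old pre 2 (94739324 to 94739957), and no region within the limit in at least 2. That peak lay within the gene and overlapped only the last bases of the promoter window.

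**Figure D3:**
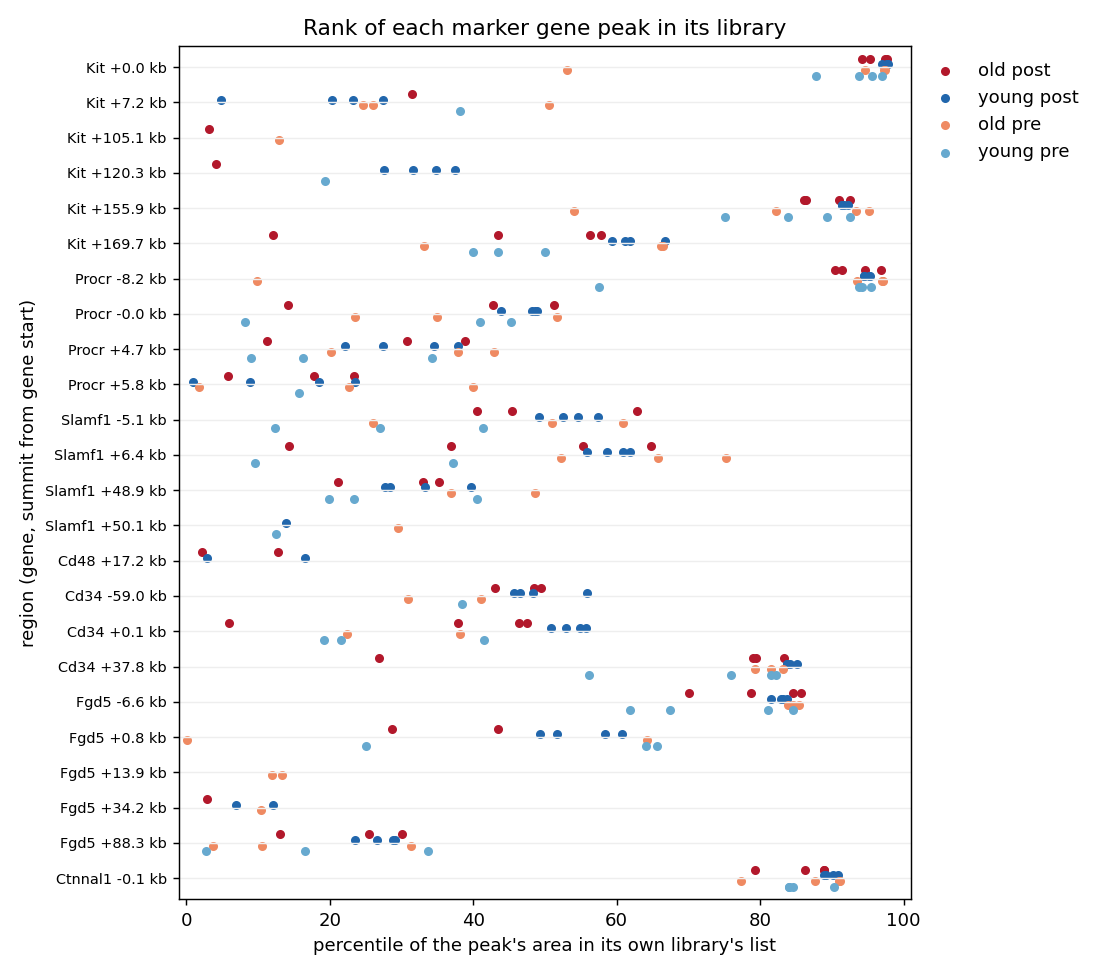
Percentile of each peak's area in its own library's list (horizontal axis) for the 24 regions (rows), with a point for each library that called the region, coloured by group. The Kit start, the Kit region at 155.9 kb, the Procr region 8.2 kb upstream and the Ctnnal1 start lie mostly above 80, and the points far to the left in those rows are the shortest lists.

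Between groups, 0 of the marker gene regions passed in any of 6 comparisons. The exact conditional test gave every library a weight for its odds of a call, with Benjamini-Hochberg adjustment across every region tested. For old pre against young pre, 0 of 7 tested members passed, where 0% of all 9407 tested regions did. For old post against young post it was 0 of 4, where 0.465% of all regions did. For old post against old pre it was 0 of 4, where 0.00963% did, and for young post against young pre 0 of 4, where 0.744% did. These last 4 members each had 4 of 4 young post and 1 of 4 young pre calls, against 3.89 expected in young post. No gain could have passed there, since 4 is the most possible. Likewise, the Kit regions at 7.2 and 120.3 kb had 1 of 4 old post and 4 of 4 young post calls. That is the fewest old post calls their totals allow, against 1.42 expected, so no loss could have passed. Over both stages, old against young called 0 of 8 members and 0.27% of all regions, and over both ages, post against pre called 0 of 8 and 0.402%. At an unadjusted p under 0.05 there was 1 tested member, the Kit region at 7.2 kb in old post against old pre, where 4.87% of all regions passed. In the other comparisons there were 0, where 2.29% (old pre against young pre), 1.84% (old post against young post), 3.41% (young post against young pre), 4.56% (old against young) and 5.62% (post against pre) of all regions did. Limma, run on the same calls minus their expectation and not on signal, also called 0 members in each comparison, where it called regions of any kind in 3 of the 6. Fisher's exact test called 0 of all regions in every comparison, so its 0 members says nothing of them. With at most 8 members tested, shares of this size are not told apart from the background.

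All-or-none regions, with a call in every library of 1 group and in none of the group set against it, numbered 0 among the members. Of all regions, 1.52% were absent from old post and present throughout young post, and 7.13% were present throughout young post and absent from young pre. The reverse of the second held for 0.00296%. For old post against old pre it was 0.00888% present throughout old post and absent from old pre and 0.00296% the other way, and for old pre against young pre 0%. Without young pre 1, 4 of 24 members (16.7%) were called in every young post library and in no other young pre library, where 17.2% of all regions were all-or-none in either direction. These members, at the share of all regions, were the Kit regions at 7.2 and 120.3 kb, the Procr region at 5.8 kb and the Cd34 region 59.0 kb upstream. Without old post 2, the Kit region at 120.3 kb was called in 0 old post and 4 of 4 young post libraries, and without old post 3 the one at 7.2 kb was. That is 1 member of 24 without old post 2, where 2.09% of all regions were all-or-none in either direction, and 1 of 23 without old post 3, where 5.40% were. Of the 24 members, 4 were called in all 16 libraries (16.7%), where 15.6% of all regions were, and no test was made of this share. Old pre 4, the shortest list, called 5328 regions, and 5262 regions were called in all 16 libraries. The members called in old pre 4 were these same 4.

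The number of members called was lowest in the 3 shortest lists. It was 16, 19, 21 and 9 in old post 1 to 4, 20, 19, 21 and 21 in young post, 20, 21, 14 and 4 in old pre, and 20, 14, 15 and 6 in young pre. As a share, this averaged 67.7 ± 21.9% in old post, 84.4 ± 3.99% in young post, 61.5 ± 32.5% in old pre and 57.3 ± 24.1% in young pre (SD, n = 4 each). The share of all regions called in the same libraries averaged 67.1 ± 21.3%, 88.5 ± 2.02%, 55.5 ± 30.8% and 56.2 ± 21.8% in old post, young post, old pre and young pre (SD, n = 4 each). The members' share stood above that of all regions in each of the 4 old pre libraries, by 7.68, 3.94, 11.3 and 0.891 points, and below it in each of the 4 young post libraries, with differences of -7.38, -6.83, -0.428 and -1.87 points. It lay on both sides in old post and in young pre. These directions depended on the processing. With the minimum area doubled, old pre libraries called 52.9% of members and 54.1% of all regions, and without old pre 1, young post libraries called 92.0% of members and 89.9% of all regions. Against the number expected from each library's odds of a call, old pre 1 to 4 lay at 1.51, 1.13, 1.23 and -0.0367 member regions. Young post 1 to 4 lay at -1.49, -1.38, 0.179 and -0.163. Stage is confounded with transposition day, since no day held both pre and post libraries, so the 2 cannot be told apart.

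**Figure D4:**
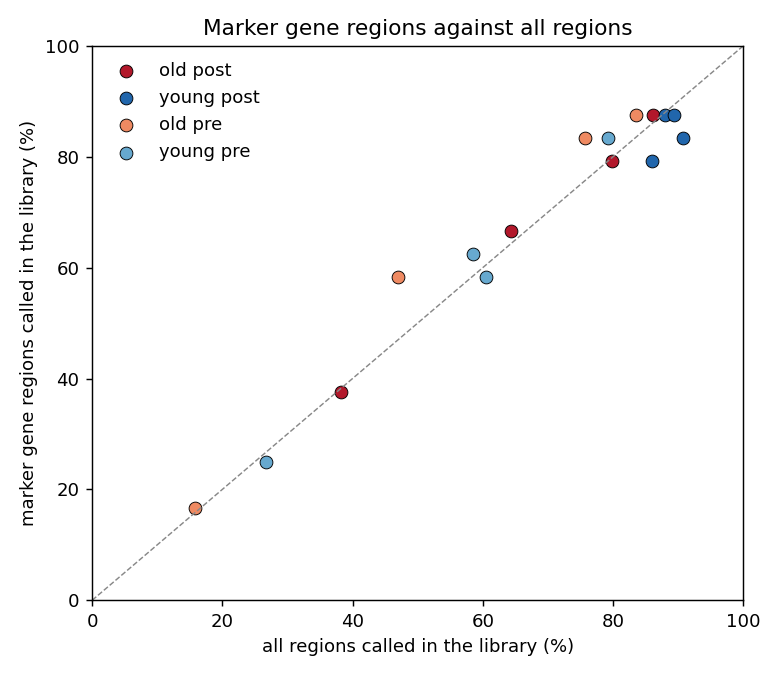
Share of the 24 marker gene regions called (vertical axis, %) against the share of all 33773 regions called (horizontal axis, %) in each library, coloured by group, with the line of equal shares dashed. The 4 old pre points lie above the line and the 4 young post points below it.

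Other HSC surface and reporter genes were counted beside these. The list of 26 genes, among them Esam, Eng, Mecom and Hlf, had 126 regions at 25 genes, of which 13 (10.3%) were called in all 16 libraries. Their share called averaged 61.7% in old post, 86.3% in young post, 57.7% in old pre and 53.2% in young pre. Of 62 of its regions tested over 16 libraries, 1 passed for post against pre, where 0.402% of all regions did. It was a region of the adhesion receptor gene Adgrg1, with fewer calls in post than expected from the library odds. For old against young 0 passed, where 0.27% of all regions did. In the 4 comparisons of 4 with 4 libraries, 0 of 20 to 42 tested regions passed, where 0% to 0.744% of all regions did. The median difference between calls and expectation for old against young was 0.336 calls over the 8 marker gene regions tested and 0.0920 over the 62 regions of the longer list, beside -0.242 over all regions. Over these 8 regions it ran from -1.29 (Kit, 120.3 kb) to 1.16 (Procr, 5.8 kb). For young post against young pre, marker gene and all regions both had a median of 0.109. For old post against old pre the medians were -0.0644 and 0.0538. They were 0.223 and -0.00131 for old pre against young pre, and -0.0311 and -0.421 for old post against young post. Post against pre gave 0.139 and 0.0242. No test was made of these medians.

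The start windows were set beside those of lineage genes. A window counted as called where a merged region overlapped it, as at Fgd5, where no summit lay in the window. Of 8 marker genes with a window, 5 were called in at least 8 libraries, and of 15 other HSC genes with a window, 14 were. Of 20 lineage and progenitor genes with a window, only Flt3, a receptor of multipotent progenitors, was called in at least 8 libraries, in 15 of 16. No region in at least 2 libraries lay over the windows of 18 of these 20, among them the T cell genes Cd3e and Cd8a, the B cell gene Cd79a and the granulocyte genes Mpo, Elane and Ly6g, and the Itgam window was called in 2 of 4 young post libraries and no others. Away from the windows, lineage genes did hold regions, 29 at 11 of 26 genes, of which 6 (20.7%) were called in all 16 libraries. The NK cell receptor gene Klrb1c held 7 of them, 3 called in all 16 libraries, and all 4 erythroid genes held regions, with 1 called in all 16 libraries at both Klf1 and Epor. Over all 17273 genes with a window, 52.9% were called in at least 8 libraries.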

How the data were processed

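ATAC-seq was made by the submitters with the Omni-ATAC protocol from 10000 sorted HSCs per library, per the labels' protocols. Per the submitters' processing notes, reads were handled with FastQC, MultiQC, Trim Galore and cutadapt and peaks called with Genrich on build mm10, and ChIPseeker, featureCounts and DESeq2 are also named; for the aligner, versions and settings: not given in the sources used here. Deposited narrowPeak lists, 1 per library, hold a score per peak, the area of significance summed over its bases, with a smallest value of 200.0, and the deposited −log10 q of its summit, neither normalised between libraries. Of 387029 deposited peaks, 393 on unplaced scaffolds were left out.

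Peaks overlapping by at least 1 bp were merged, and regions in at least 2 libraries were assigned to the nearest of 21627 protein-coding genes (RefSeq, GRCm38.p6). Where a summit lay inside several genes, the one with the nearest end was taken. Calls were compared by a two-sided exact conditional test on library odds (Rasch model), adjusted over regions with 3 to 5 calls of 8 or 4 to 12 of 16, in Python 3.11.15 with numpy 2.4.6. The code was tried on simulated calls drawn from the same model. That trial cannot show how the test behaves where real calls depart from the model. The interaction of age and transplantation was tested by exact permutation of donors on calls minus expectation. Limma 3.58.1 in R 4.3.3 was an alternative, run on calls minus expectation, so it is no separate measure of openness. Comparisons over both stages count the libraries of a donor as independent, so their p may be too small. By the series design, post and pre libraries of the same age and number share donors. Correlations of their deviations from group means over regions ran from -0.187 to 0.0457. The promoter windows' strand was checked on 1627 overlapping pairs.

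Regions named in full were, for each gene, that nearest its start and that with the largest group difference. For each comparison, the region with the smallest p among those adjusted was also named in full. The other members are given in brief. Genes alike in pattern were sought only for genes with at least 3 regions called in 4 to 12 libraries, and 0 members qualified. The members and lists were chosen with earlier results of these data known.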

Additional observations from a re-analysis of the deposited data

Results flagged for a closer look

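The area of the peak was also ranked among the 5262 regions called in all 16 libraries, so that every library ranks the same regions. With 4 regions and 4 groups this gave 16 sets of 4 libraries, and the shares of members called gave 4 more, 20 in all. A library stood apart from the other 3 in 3 of these, all of them ranks, and chance alone gives about 1 in 20. At the Kit start, old pre 4 lay at percentile 50.9, and the other old pre libraries lay at 83.1 to 86.7. At the Procr region 8.2 kb upstream, old pre 4 lay at 8.55 and the other old pre libraries at 79.6 to 86.3. At the same region young pre 4 lay at 28.8 and the other young pre libraries at 73.0 to 81.9. Old pre 4 and young pre 4 have the shortest lists, of 5687 and 9614 peaks on standard chromosomes. Their part in these ranks was not tested.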

How the results depend on the processing

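The count of 0 members past the threshold was the same in each comparison under each alternative run: Fisher's exact test, limma with donor as block, lists shortened to the third shortest, a doubled area minimum, regions in at least 3 libraries, merging only at larger overlaps, transposition days with both ages (old against young), and without any 1 library. In young post against young pre, no member was left to test without young pre 2, 3 or 4 or without the 3 shortest lists, so those counts were fixed, and so were those of Fisher's test, which called 0 of all regions. Shortened lists and the doubled area minimum called 0 of all regions in old pre against young pre, old post against young post and old post against old pre. Days with both ages did so in the first 2 of these. Limma did so in old pre against young pre, old post against old pre and post against pre. Such zeros say nothing of the members. With the replicate block, in which libraries of the same number were compared as pairs, it was also 0, and the block changed no call of a member. Only pre and post libraries of the same age share donors. In old against young comparisons the pairs share a number but no donor, so the matching there is arbitrary. Without the 3 shortest lists, chosen after seeing the data, it was 0 too. Among all regions, limma called 278 in old post against young post, 303 in young post against young pre and 343 in old against young, beside 24, 66 and 41 for the exact conditional test. The block called 4, 52 and 3 of them. Assignment to the nearest gene end was tried for shares and all-or-none counts only. Leaving out a library gave 0 to 1 all-or-none members for old post against young post, 0 to 4 for young post against young pre, and 0 for both other comparisons. At the highest counts, 2.09% and 5.40% of all regions (old post 2 or old post 3 left out) and 17.2% (young pre 1 left out) were all-or-none in either direction. The share of members called in young post was 77.3% with shortened lists (11 members left), 92.0% with regions in at least 3 libraries (22 members), and 83.3% to 92.0% without 1 library. For the Kit region at 7.2 kb, post against pre over both ages lay below expectation, and at 0.5 calls above it without weights; the weights take up the longer post lists. Presence at a fixed threshold is all that was compared, so differences in openness above the threshold were not detectable here.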

Other observations

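Peaks called in a single library were not counted as members. Within 100 kb of the marker genes there were 5, of which 4 were in old pre 2 (1 within Tek, 2 within Kit and 1 within Fgd5) and 1 in old post 3 (within Kit). In the SLAM gene cluster, a region 7.65 kb from Slamf7 and 20.6 kb from Cd48 (chromosome 1, 171660445 to 171660778) was called in 0 of 4 old post, 4 of 4 young post, 0 of 4 old pre and 0 of 4 young pre libraries. It was singled out after its values were seen. Of all regions, 1.52% were called in 4 of 4 young post and 0 of 4 old post libraries, and 7.13% in 4 of 4 young post and 0 of 4 young pre libraries. Young post had the longest lists on average. In the Ly6 cluster, a region 8.51 kb from Ly6e was called in 3 of 4 old post, 4 of 4 young post, 3 of 4 old pre and 1 of 4 young pre libraries.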
